A study of Mus musculus with 16 samples.

Results

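Endothelial cells (ECs) of unchallenged mouse liver were compared between the genotype labels KO and WT. The members were the EC libraries, chosen by their cell type label, which gave 4 of the 16 libraries in the series, 2 labelled EC WT (34 and 38) and 2 labelled EC KO (6 and 46). KO stands for tamoxifen-inducible deletion of the loxP-flanked exon 7 of Zeb2 by a Cre recombinase (CreERT2) under the Cdh5 promoter, in mice that also carried an eGFP reporter in the Rosa26 locus. The controls were Cre-negative littermates. Both received 2 mg tamoxifen per day on 5 consecutive days, at about 8 weeks of age and as males by the study's methods, and RNA was taken 2 weeks later. The Cdh5 promoter drives Cre in all vascular endothelium and not in one liver bed, and no group of mice carried Cre without the floxed gene. ECs were sorted as cells positive for the Meca32 epitope and free of the vitamin A autofluorescence of hepatic stellate cells (HSCs). Hepatocytes (HEP), Kupffer cells (KC) and HSCs of the same study served here for reference, with 2 libraries per label each.

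Zeb2 is a zinc finger transcription factor that binds E-box motifs and is known for repressing epithelial genes and for setting cell identity in many lineages. Liver sinusoidal ECs (LSECs) are fenestrated, lack a continuous basement membrane and clear particles through scavenger receptors such as Stab2 (stabilin 2). When they take on features of continuous capillaries, among them the surface protein CD34, the process is called capillarization. Sprouting vessels are led by tip cells, which secrete PDGF-B to attract pericytes, the mural cells to which HSCs belong.

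Read counts per gene were analysed for 47729 genes. Between 12872706 and 14385433 reads per EC library fell on genes, and 3 counts, taken as the smallest level this depth can show, equalled 0.209 to 0.233 CPM (counts scaled to a common library total). Levels are given as CPM after TMM normalization (normalized CPM) unless raw CPM is stated. Genes were tested with edgeR's quasi-likelihood test over the 14631 genes that passed its filter on low counts, and an adjusted p under 0.05 (Benjamini-Hochberg) was the threshold. No label says that the libraries of a group came from separate mice, so that p-values measure the spread between libraries. An exact two-sided permutation test of 2 libraries against 2 cannot go below p = 0.333 and was not used.

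The targeted gene was examined first. Zeb2 (ENSMUSG00000026872, GRCm38 chromosome 2 from 44983632 to 45117395, reverse strand) had 108 and 104 normalized CPM in the WT libraries and 191 and 136 in the KO-labelled pair. Both KO libraries lay above both WT libraries, with a log2 fold change of 0.62 (SE 0.24, adjusted p = 0.303). Reads were counted over the whole gene, so that the count does not measure exon 7. Directions below are given by the label. Zeb1, the other member of the family, had 182 and 251 normalized CPM in WT and 241 and 210 in the KO-labelled pair (log2 fold change 0.06, SE 0.25, adjusted p = 0.949).

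EC markers were abundant in all 4 libraries. Stab2 had 3804 and 3938 normalized CPM in WT and 4201 and 4081 in the KO-labelled pair. Clec4g, a lectin of LSECs, had 7130 and 5349 against 9256 and 10549, without overlap between the labels (log2 fold change 0.67, SE 0.32, adjusted p = 0.409). Kdr, the main VEGF receptor, had 2527 and 1919 against 1951 and 1703, and Cdh5, the adherens junction cadherin of endothelium, 237 and 169 against 170 and 172. For these last genes the labels overlapped. None of the 4 markers passed the threshold.

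RNA of other liver cells differed between the labels. The summed level of 10 hepatocyte markers was 13211 and 27147 normalized CPM in WT and 2936 and 2328 in the KO-labelled pair, and 10 of 10 passed the threshold as lower (median log2 fold change -2.93). Markers of HSCs summed to 1492 and 1773 in WT against 606 and 927, and 12 of 13 were lower at an unadjusted p under 0.05, of which 1, Col3a1, passed the threshold (9 by DESeq2). For T and NK cells the sums were 133 and 245 against 64.0 and 47.6, with 8 of 12 lower at that level and 1, Il2rb, past the threshold (3 by DESeq2). B and plasma cell markers summed to 358 and 1053 against 247 and 242, with 6 of 9 lower and 0 past the threshold by edgeR (5 by DESeq2). Markers of Kupffer cells went the other way, with sums of 1176 and 996 in WT and 1533 and 1936 in the KO-labelled pair. Of these 13 genes, 7 were higher at an unadjusted p under 0.05 and 0 passed the threshold by edgeR (1 by DESeq2). The sums of the neutrophil, erythroid, platelet and mesothelium markers overlapped or met between the labels, while those of dendritic cells (146 and 154 against 229.8 and 169), cholangiocytes (269.7 and 262 against 199 and 136) and smooth muscle (26.4 and 40.3 against 12.7 and 10.5) did not. All markers of hepatocytes, HSCs, Kupffer cells and B and plasma cells had reads in every EC library, and 1 of the T and NK cell markers had none in EC KO 46. At the median, the EC libraries held 11.5% and 24.7% of the WT hepatocyte level of the hepatocyte markers in WT and 2.44% and 1.94% in the KO-labelled pair. In sorted bulk RNA, fewer cells of a type and less RNA per cell cannot be told apart.

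**Figure D1:**
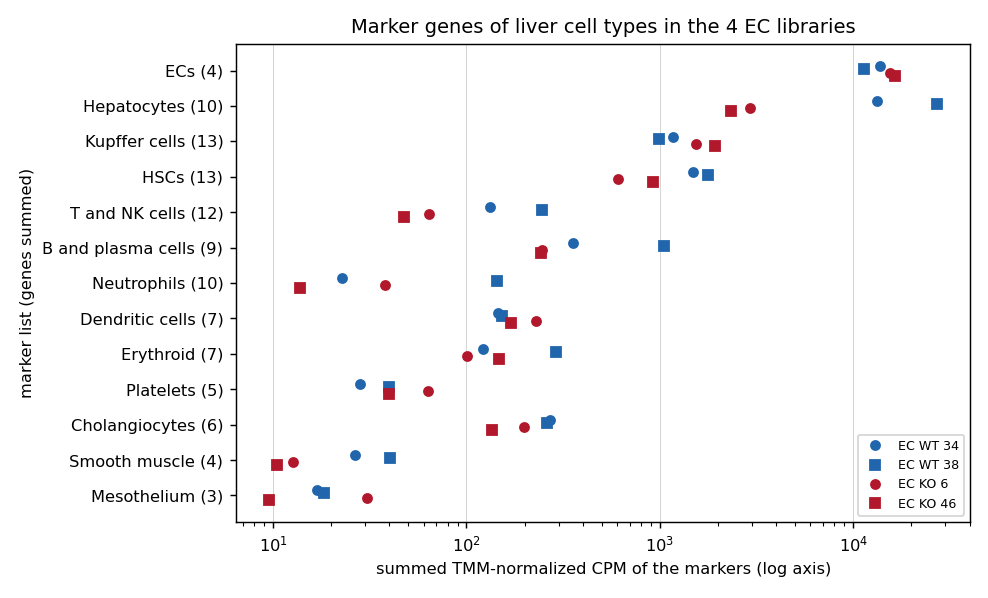
Summed TMM-normalized CPM (log axis) of marker genes of 13 liver cell types in the 4 EC libraries, with the number of genes summed in parentheses. Blue points are the WT and red points the KO libraries. Hepatocyte markers lie between 13211 and 27147 in WT and between 2328 and 2936 in the KO-labelled pair, whereas the 4 EC markers lie between 11374 and 16505 in all libraries.

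Over all genes, 305 of 14631 (2.08%) passed the threshold, 17 higher (0.116%) and 288 lower (1.97%) in the KO-labelled pair. The calls lay mostly among genes abundant in hepatocytes. Of the 1228 tested genes with a mean of 100 raw CPM or more in the 2 HEP WT libraries, 261 were lower and 1 was higher, together 21.3% (median log2 fold change -0.47). In the bins from 10 to 100, from 1 to 10, from 0.1 to 1 and under 0.1 raw CPM the share called was 0.408%, 0.177%, 0.477% and 0.260%, and the medians were 0.08, -0.01, -0.06 and -0.11. The genes with a mean under 1 raw CPM in the HEP WT libraries were read apart. These were 36970 genes, of which 4233 passed the filter and were tested. The hepatocyte libraries held reads of EC genes (Stab2 had a mean of 38.4 and Cdh5 of 1.22 raw CPM in HEP WT), and only 5 of 25 pan-endothelial genes lay under this limit.

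**Figure D2:**
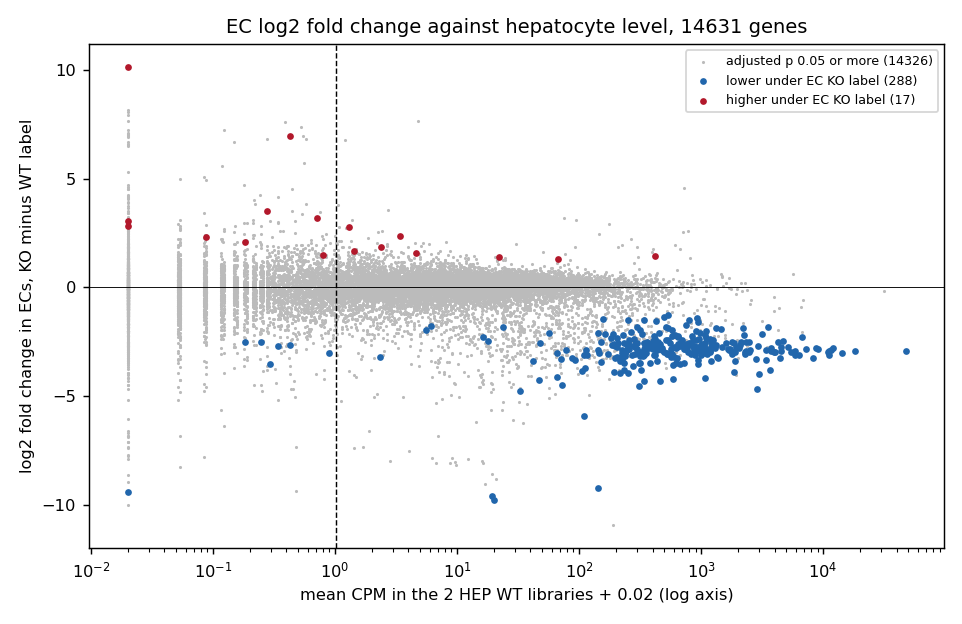
Log2 fold change in ECs, KO minus WT label, against the mean raw CPM in the 2 HEP WT libraries plus 0.02 (log axis), for 14631 genes. Blue points are the 288 genes past the threshold as lower, red points the 17 as higher, and the dashed line marks 1 CPM. The blue points crowd at 100 CPM and above, and 16 coloured points lie left of the line.

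Among the 4233 genes under 1 CPM in hepatocytes, 16 (0.378%) passed the threshold, 9 higher (0.213%) and 7 lower (0.165%) in the KO-labelled pair. At an unadjusted p under 0.05 there were 448 (10.6%), 174 higher (4.11%) and 274 lower (6.47%), and the median log2 fold change was -0.08 (-0.01 over all genes). The labels did not overlap for 41.8% of these genes, against 48.5% of all genes. The higher genes were a PDGF ligand, a cytoskeletal protein, a GTPase, membrane proteins and a cell cycle regulator with 2 transcripts of a pseudogene or histone kind and 1 small predicted protein. The lower ones were a cytokine receptor, a chemokine, an adaptor, a phosphatase, a calcium pump, a kinesin and an immunoglobulin gene. Nearest to the limit, Ptpn22 had 0.878 and Gm12216 0.776 raw CPM in WT hepatocytes, and the first called genes outside it were Palm with 1.28 and Cd34 with 1.40.

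The number of calls rested on the libraries and on the genes fitted together. DESeq2 called 146 genes of this class, among them all 16, whereas a fit of these genes alone called 0 with edgeR (383 at an unadjusted p under 0.05, smallest adjusted p = 0.146) and 57 with DESeq2. Without EC KO 46, 1 gene passed, Rps3a3. Without EC KO 6, 6 passed, of which 4 were among the 16 (Hist2h2bb, Rps3a3, Map1b and Ifitm10). Without EC WT 34 the count was 88 and without EC WT 38 it was 27. With all 16 libraries in one fit, 9 passed, of which 3 were among the 16 (Map1b, Kif21b and Ptpn22). All 16 kept their direction in every alternative in which they were tested.

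Pdgfb (ENSMUSG00000000489, chromosome 15 from 79995874 to 80014977) encodes the PDGF-B chain, the ligand of the receptor Pdgfrb on pericytes and HSCs. It had 1.70 and 3.45 normalized CPM in the WT libraries and 15.8 and 20.9 in the KO-labelled pair, so that the labels stood well apart. The log2 fold change was 2.83 (SE 0.50, adjusted p = 0.0492). No read of Pdgfb was counted in either HEP WT library, but Kupffer cells had 11.8 to 20.4 raw CPM in their 4 libraries, which also held reads of the EC markers Kdr (28.0 to 103), Stab2 (222 to 392) and Clec4g (136 to 286). These 3 stood at 1633 to 2487, 3743 to 4368 and 5417 to 10114 raw CPM in the EC libraries. Kupffer cell markers in the EC libraries stood at no more than 2.31% of their WT Kupffer cell level at the median, and their part in the difference was not tested.

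Map1b (ENSMUSG00000052727, chromosome 13 from 99421446 to 99516540), which encodes a microtubule-associated protein best known from growing neurites, had 8.08 and 10.0 normalized CPM in WT and 72.7 and 92.3 in the KO-labelled pair (log2 fold change 3.18, SE 0.28, adjusted p = 0.0190). Its replicates lay close together in both labels. No other cell type reached this level, the highest other library being HSC KO 8 with 19.5 raw CPM. Rerg (ENSMUSG00000030222, chromosome 6 from 137054825 to 137170497), a small GTPase of the Ras family, had 3.40 and 1.30 in WT against 19.4 and 35.4 (log2 fold change 3.53, SE 0.58, adjusted p = 0.0409). HSCs carried much more of it, with 150 to 237 raw CPM in their 4 libraries. HSC markers in the EC libraries were lower in the KO-labelled pair, and their part in the difference was not tested.

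Igsf23 (ENSMUSG00000040498, chromosome 7 from 19937305 to 19950756), a membrane protein of the immunoglobulin superfamily, had 2.48 and 3.84 normalized CPM in WT and 20.1 and 32.3 in the KO-labelled pair (log2 fold change 3.05, SE 0.44, adjusted p = 0.0315). Few reads came from other sorted cells, with at most 1.09 raw CPM in any HSC library and no count in the 4 KC and 4 HEP libraries. Ifitm10 (ENSMUSG00000045777, chromosome 7 from 142325837 to 142373753), a member of the interferon-induced transmembrane protein family, had 25.2 and 16.6 in WT and 84.8 and 126 in the KO-labelled pair (log2 fold change 2.33, SE 0.32, adjusted p = 0.0300). In the other cells it reached between 0 and 13.3 raw CPM, the most in Kupffer cells.

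Rgcc (ENSMUSG00000022018, chromosome 14 from 79288756 to 79301645), a regulator of cell cycle progression that marks capillary endothelium, had 14.04 and 13.5 normalized CPM in WT and 47.1 and 69.7 in the KO-labelled pair (log2 fold change 2.08, SE 0.29, adjusted p = 0.0300). The WT libraries were nearly equal and both KO libraries lay far above them. Gm12216 (ENSMUSG00000081769, chromosome 11 from 53783418 to 53859256) is annotated as a protein-coding gene of 62 residues and had 44.3 and 53.2 in WT against 126 and 149 (log2 fold change 1.5, SE 0.22, adjusted p = 0.0348). This gene was read more in HSCs, which had 79.6 to 386 raw CPM in their 4 libraries.

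The remaining higher genes have uncertain identities. The files name ENSMUSG00000050936 Hist2h2bb, while GENCODE M21 lists it as a long intergenic RNA, Gm42743 (chromosome 3 from 96269721 to 96279001), that overlaps the histone gene on the same strand. It had no count in either WT library and 7.37 and 12.6 normalized CPM in the KO-labelled pair, at least 45.1-fold higher against the floor of 3 counts per library (adjusted p = 0.0300). Rps3a3 (ENSMUSG00000059751, chromosome 13 from 108670603 to 108671397) is a processed pseudogene of a ribosomal protein gene inside Pde4d, and its reads may also fit the parent gene. It had 0.425 and 0.307 in WT and 29.7 and 64.5 in the KO-labelled pair (log2 fold change 6.97, SE 0.59, adjusted p = 0.0190). Outside ECs its reads were high in single KO-labelled libraries and near the floor in the others. HSC KO 8, KC KO 27 and HEP KO 25 had 22.7, 28.0 and 13.99 raw CPM, whereas HSC KO 20, KC KO 43 and HEP KO 41 had at most 0.406, and no WT library of any cell type had more than 0.682. The ID named Hist2h2bb likewise had 4.98 raw CPM in HSC KO 8 and at most 0.462 in the other libraries outside ECs.

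**Figure D3:**
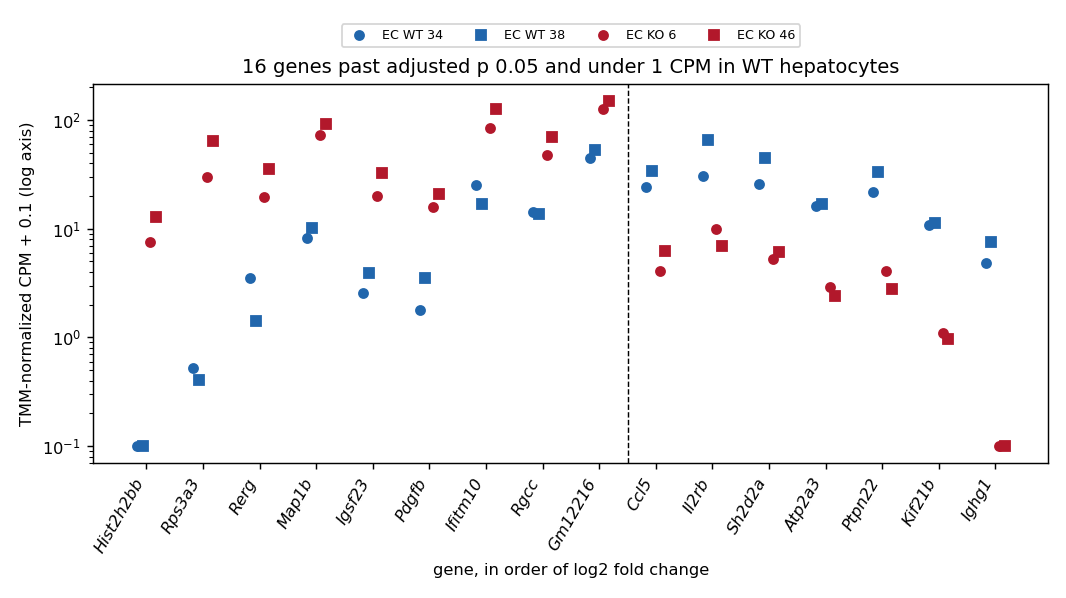
TMM-normalized CPM plus 0.1 (log axis) in each EC library for the 16 genes past the threshold with a mean under 1 CPM in WT hepatocytes, in order of log2 fold change. Blue points are WT and red points KO libraries, and the dashed line parts the 9 higher from the 7 lower genes. No gene overlaps between the labels, which was a condition for naming them, and points at 0.1 had no count.

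All 7 genes that were lower in this class had values without overlap, which was a condition for naming them. Of the 4233 genes in the class, 22.6% were lower without overlap. Il2rb (ENSMUSG00000068227, chromosome 15 from 78479256 to 78495271), the beta chain of the interleukin 2 receptor and one of the T and NK cell markers above, had 30.7 and 66.0 normalized CPM in WT and 9.91 and 6.82 in the KO-labelled pair (log2 fold change -2.53, SE 0.45, adjusted p = 0.0495). Ccl5 (ENSMUSG00000035042, chromosome 11 from 83525778 to 83530518), a chemokine of T and NK cells, had 24.0 and 34.2 against 3.95 and 6.16 (log2 fold change -2.53, SE 0.39, adjusted p = 0.0367). Sh2d2a (ENSMUSG00000028071, chromosome 3 from 87846755 to 87855722), an adaptor of T cell signalling, had 25.6 and 44.8 against 5.16 and 6.02 (log2 fold change -2.65). Ptpn22 (ENSMUSG00000027843, chromosome 3 from 103859795 to 103912247), a tyrosine phosphatase of lymphocytes and myeloid cells, had 21.6 and 33.1 against 3.95 and 2.68 (log2 fold change -3.04). In each of these genes EC WT 38 had the highest level, the library that also had the highest sum of T and NK cell markers.

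Atp2a3 (ENSMUSG00000020788, chromosome 11 from 72961169 to 72993044), a calcium pump of the endoplasmic reticulum, had 16.1 and 16.9 normalized CPM in WT and 2.81 and 2.32 in the KO-labelled pair (log2 fold change -2.68, SE 0.41, adjusted p = 0.0363). Kif21b (ENSMUSG00000041642, chromosome 1 from 136131389 to 136177998), a kinesin motor, had 10.7 and 11.1 against 1.005 and 0.870 (log2 fold change -3.53, SE 0.54, adjusted p = 0.0361). For this pair the WT libraries were almost equal, unlike in the other genes above. Ighg1 (ENSMUSG00000076614, chromosome 12 from 113325240 to 113330523), the constant region of an immunoglobulin heavy chain, had 4.75 and 7.44 in WT and no count in the KO-labelled pair, at least 29.1-fold lower (adjusted p = 0.0388). Of the 7 genes, 4 had their highest WT mean in ECs, 2 in Kupffer cells and 1 in HSCs. With both labels counted, Ptpn22 and Ighg1 had their highest mean in KC KO. For Ighg1 it was 14.6 raw CPM (27.1 in KC KO 27 and 2.03 in KC KO 43), against 6.11 in EC WT. Markers of T, NK and B cells fell alongside, as given above, and their part in these results was not tested.

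**Figure D4:**
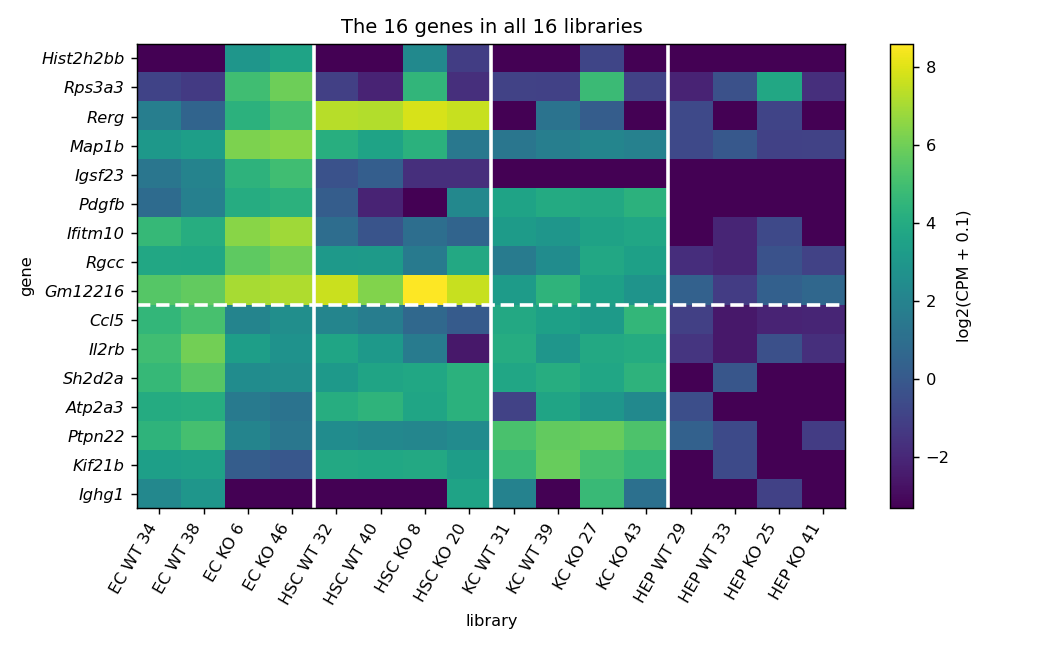
Log2 of raw CPM plus 0.1 (colour scale) for the same 16 genes in all 16 libraries, grouped by cell type with white lines, with the 9 higher genes above the dashed line. Of these 9, 7 have their highest group mean under the EC KO label, while Rerg and Gm12216 are higher in HSCs.

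Just outside the threshold in this class, 3 higher genes with at least 5 normalized CPM in 1 label followed. Gm11346, which overlaps a coding gene on the opposite strand, had 0.213 and 0.690 normalized CPM in WT and 8.37 and 9.06 in the KO-labelled pair (adjusted p = 0.0530). Eps8l1, a relative of an actin regulator, had 1.63 and 0.307 against 12.5 and 25.3 (adjusted p = 0.0581). Prr5l, which encodes a protein bound to the kinase complex mTORC2, had 150 and 133 against 308 and 298 (log2 fold change 1.10, SE 0.21, adjusted p = 0.0592). On the lower side stood Sema4d, Cd7, Tpsab1 and Ighv7-3, among others, genes known from lymphocytes or mast cells. Sema4d had 9.004 and 10.8 against 0.536 and 1.23 normalized CPM (adjusted p = 0.0566). The mast cell tryptase Tpsab1 had 2.91 and 15.6 in WT and no count in the KO-labelled pair (adjusted p = 0.0593). The T cell gene Cd7 had a log2 fold change of -3.22, and Ighv7-3 had 5.03 and 5.14 in WT against 0.134 and 0 (adjusted p = 0.0660).

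Regulatory sequence was read for the higher genes because Zeb2 binds E-boxes of the form CACCTG. RefSeq promoters (GRCm38.p6) were searched for CACCTG and its reverse complement CAGGTG in the 250 bases before each start site. Of all 32851 promoters 17.2% held at least 1 match, and 17.5% of the 2899 promoters of tested genes under 1 CPM in hepatocytes. Of the 9 higher genes, 5 had promoters in the table, 8 in all, and 2 of these 8 (25%) held a match, 1 each for Igsf23 and Ifitm10. Pdgfb, Rerg, Rps3a3 and Hist2h2bb had no entry. Of the 7 lower genes, 2 had entries, Atp2a3 and Ptpn22, and 0 of their 3 promoters held a match. A match is a description of the letters and not a measured site. Shown are promoters of 4 of those 5 genes, to let the letters around the matches be compared with promoters without one, 5′ to 3′ on the gene's strand, with a match in capitals, and cut where an annotated exon of the gene begins. For Igsf23 (chr7:19953655-19953904) and Ifitm10 (chr7:142372442-142372577) the window with the match is shown, of 2 and 3 windows. The single window of Map1b, without a match, is not shown. In Igsf23 the match begins 61 bases before the start site, in a window that also holds part of the pseudogene Rpl7a-ps8 on the opposite strand, and in Ifitm10 it begins 204 bases before it. The windows of Rgcc (chr14:79301646-79301885) and Gm12216 (chr11:53859257-53859506) hold none, and all 4 genes lie on the reverse strand.
Igsf23: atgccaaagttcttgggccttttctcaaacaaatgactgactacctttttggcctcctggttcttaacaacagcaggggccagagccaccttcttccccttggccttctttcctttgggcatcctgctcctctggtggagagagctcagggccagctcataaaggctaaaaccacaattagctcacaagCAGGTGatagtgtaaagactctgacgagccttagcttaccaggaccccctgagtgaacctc
Ifitm10: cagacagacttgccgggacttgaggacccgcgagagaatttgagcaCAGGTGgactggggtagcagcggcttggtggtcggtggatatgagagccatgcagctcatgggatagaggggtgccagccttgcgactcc
Rgcc: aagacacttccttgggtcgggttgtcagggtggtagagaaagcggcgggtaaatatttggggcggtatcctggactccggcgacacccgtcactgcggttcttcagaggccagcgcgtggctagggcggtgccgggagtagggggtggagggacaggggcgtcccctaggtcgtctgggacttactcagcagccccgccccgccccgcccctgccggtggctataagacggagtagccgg
Gm12216: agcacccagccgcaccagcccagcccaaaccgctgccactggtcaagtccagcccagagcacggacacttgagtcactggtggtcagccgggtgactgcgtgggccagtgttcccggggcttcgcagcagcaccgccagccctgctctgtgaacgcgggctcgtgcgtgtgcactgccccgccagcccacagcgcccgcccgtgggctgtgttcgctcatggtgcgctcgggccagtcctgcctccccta

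Genes at 1 CPM or more in WT hepatocytes held the other 289 calls (2.78% of 10398), 8 higher (0.0769%) and 281 lower (2.70%). By log2 fold change the first of the higher ones were Palm, Trib3, Capn3 and Cd34. Palm (ENSMUSG00000035863), which encodes the membrane-bound protein paralemmin, had 8.65 and 5.98 normalized CPM in WT and 44.5 and 57.2 in the KO-labelled pair (log2 fold change 2.79, SE 0.33, adjusted p = 0.0290). Trib3, a pseudokinase induced by endoplasmic reticulum stress, had 5.25 and 4.14 against 26.1 and 21.5 (log2 fold change 2.34, adjusted p = 0.0361). The calcium-dependent protease gene Capn3 had 20.6 and 21.6 against 68.6 and 83.9 (log2 fold change 1.85, adjusted p = 0.0290). Cd34 had 72.5 and 60.5 in WT and 222 and 202 in the KO-labelled pair, with close replicates (log2 fold change 1.67, SE 0.22, adjusted p = 0.0293). With all 16 libraries in one fit, Palm passed the threshold and the other 3 did not. The lowest were hepatocyte genes. Cyp4a14, a fatty acid hydroxylase, had 6.10 and 9.51 in WT and no count in the KO-labelled pair, at least 37.3-fold lower, Clmn was at least 32.7-fold lower, and Ces1g had a log2 fold change of -5.91. Mup5, one of a family of near-identical genes among which counting can split reads, had 19.0 and 33.1 in WT against 0.0670 and 0. WT hepatocytes held Cyp4a14, Clmn, Ces1g and Mup5 at means of 20.0, 19.5, 110 and 143 raw CPM. The HEP WT libraries 29 and 33 differed widely for Mup5 (2.61 and 284) and for Cyp4a14 (6.31 and 33.8).

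To keep EC genes that the 1 CPM limit leaves out, genes were also taken whose mean over the 4 EC libraries was at least 20 times that in WT hepatocytes, an alternative added after the values had been seen. Among 2666 such genes tested, 18 passed, 12 higher and 6 lower. They were 15 of the 16 genes above (all but Ptpn22) with Palm, Capn3 and Cd34. The 9 higher genes were thus joined by 3 more, and no further gene was lower. This choice used the KO-labelled libraries too, so that it favours genes higher there, and the split by direction is no independent result. In EC WT alone, Palm had a mean of 7.29 raw CPM against 1.28 in WT hepatocytes and Capn3 21.1 against 2.34, both under 20 times. Ptpn22, left out, had 27.3 against 0.878, which is above it.

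Gene lists were described by how many members passed the threshold, beside 0.116% higher and 1.97% lower over all genes, and how many had an unadjusted p under 0.05, beside 4.86% and 10.1%. Where DESeq2 counts are given, DESeq2 called 0.572% of all genes it fitted as higher and 3.59% as lower. The median log2 fold change over all genes was -0.01. Of 15 LSEC scavenger and endocytic receptors, 1 passed as lower, Lrp1, an endocytic lipoprotein receptor. It had 59.5 and 68.1 normalized CPM in WT and 22.6 and 23.5 in the KO-labelled pair (log2 fold change -1.47, SE 0.23, adjusted p = 0.0379). It was more abundant in the other cell types, with a mean of 157 raw CPM in HEP WT, 770 and 959 in the HSC WT and 634 and 806 in the KC WT libraries. At an unadjusted p under 0.05, 2 of the 15 were higher and 3 lower, and DESeq2 called 2 higher and 3 lower. The lowest member, at -2.08, did not pass by edgeR. The list's median was 0.18 (0.06 to 0.47 with 1 library left out). Fcgr2b, the Fc receptor that LSECs use to clear immune complexes, had 3684 and 2843 against 5056 and 4807 (log2 fold change 0.60, adjusted p = 0.413). Ehd3, a protein of endocytic recycling, had a log2 fold change of 0.18 (SE 0.32, adjusted p = 0.854).

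None of 25 pan-endothelial genes passed the threshold by edgeR (1 by DESeq2), and 3 were higher and 0 lower at an unadjusted p under 0.05, with a median of 0.24 (0.27 to 0.52 with 1 library left out). Those 3 were Emcn (endomucin, 357 and 265 normalized CPM against 588 and 640, log2 fold change 0.98), Clec14a (0.81) and Ecscr (0.70). Of 19 capillary and continuous EC genes tested, 2 passed as higher, Cd34 and Rgcc, and 0 as lower. At an unadjusted p under 0.05, 7 were higher and 2 lower, and the median was 0.68, with a range from 0.18 without EC KO 46 to 0.88 without EC KO 6. The 22 tip cell and sprouting genes held 3 that passed as higher, Pdgfb, Rgcc and Cd34, and 0 as lower, with 7 and 1 at an unadjusted p under 0.05 and a median of 0.30 (0.18 without EC KO 6 to 0.55 without EC WT 34). DESeq2 called 6 higher and 1 lower in the capillary list, and 4 and 1 in the tip cell list. The highest log2 fold change in each list was 3.41, in a member that did not pass by edgeR. These lists share members, among them Cd34 and Rgcc. They were written with those genes known to differ, so that the counts are no independent evidence. Among 14 basement membrane genes 1 passed, Col18a1, the collagen that contains endostatin, with 84.2 and 104 in WT and 9.64 and 6.16 in the KO-labelled pair (log2 fold change -3.57, SE 0.32, adjusted p = 0.0190). It had 584 raw CPM in WT hepatocytes. The median of the list, -0.04, became 0.04 with TMM factors from genes under 1 CPM in hepatocytes, 0.11 without EC WT 34, -0.28 without EC WT 38 or EC KO 46 and -0.24 without EC KO 6.

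In the VEGF and angiopoietin list, 0 of 12 genes tested passed by edgeR or DESeq2 and 0 had an unadjusted p under 0.05 (median -0.14, and 0.20 without EC WT 34). The VEGF co-receptor Nrp1 had a log2 fold change of 0.33 (SE 0.31), Kdr of -0.28 (SE 0.28) and the receptor tyrosine kinase Tie1 of -0.05 (SE 0.29). Of the 6 PDGF ligands and receptors, Pdgfb was higher and no other passed. At an unadjusted p under 0.05, 1 was higher and 2 lower, and the median was -0.37. Pdgfrb, also among the HSC markers, had 10.9 and 15.6 normalized CPM in WT and 2.75 and 6.82 in the KO-labelled pair (log2 fold change -1.47, adjusted p = 0.292). For 16 Notch genes edgeR called 0 and DESeq2 1. Mfng, a glycosyltransferase that modifies Notch receptors, had 74.7 and 47.9 normalized CPM in WT and 141 and 140 in the KO-labelled pair (log2 fold change 1.20, SE 0.27, adjusted p = 0.0984), and Notch2 had a log2 fold change of -1.09 (adjusted p = 0.300). Among 26 BMP and TGF-beta genes edgeR called 0 and DESeq2 3, with 3 higher and 2 lower at an unadjusted p under 0.05 and a median of 0.00. The higher ones were the BMP target genes Id1 (98.2 and 305 against 482 and 510), Id2 (222 and 261 against 389 and 373) and Id3 (730.1 and 967 against 1819 and 1839.9), with log2 fold changes of 1.30, 0.66 and 1.11 and adjusted p-values of 0.302, 0.242 and 0.121. The lower ones were Inhbb, an activin subunit (log2 fold change -1.13), and the signal transducer Smad3 (-0.96).

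Of 16 angiocrine signals, the factors by which ECs act on other liver cells, Pdgfb passed by edgeR and the other 15 did not. DESeq2 called 1 higher and 3 lower. The study names Gdf15, Ltf and Igf1 as ligands known from earlier work to attenuate fibrosis. They were chosen on these samples, and the study also measured them by quantitative PCR in a larger set of mice, which is not examined here. None of the 3 passed the threshold with edgeR, and all 3 were lower at an unadjusted p under 0.05 and by DESeq2. Gdf15 had 42.8 and 110 normalized CPM in WT and 12.2 and 15.3 in the KO-labelled pair (log2 fold change -2.48, SE 0.47, adjusted p = 0.0587). Igf1 had 91.1 and 233 against 31.5 and 33.9 (log2 fold change -2.31, SE 0.44, adjusted p = 0.0597), and passed with all 16 libraries in one fit. Lactotransferrin (Ltf) had 10.1 and 30.1 against 4.82 and 1.38 (log2 fold change -2.69, SE 0.77, adjusted p = 0.176). WT hepatocytes held Gdf15 and Igf1 at 267 and 829 raw CPM and Ltf at 0.375. In each of the 3, EC WT 38, with the most hepatocyte marker RNA, had more than EC WT 34. Neutrophil markers also summed to the most in EC WT 38, with 22.7 and 144 normalized CPM in WT and 38.1 and 13.7 in the KO-labelled pair. Those of T, NK and B cells did so as well. The part of RNA from hepatocytes or other cells in these differences was not tested.

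The zonated LSEC genes gave 0 calls by edgeR among 8 pericentral and 8 periportal genes (1 and 0 by DESeq2), with medians of -0.07 and -0.24. The first changed sign without EC WT 34 (0.25) and without EC KO 6 (0.12), and the second ranged from -0.30 to -0.0057 with 1 library left out. Pericentral Wnt9b had 12.3 and 9.21 normalized CPM in WT and 5.49 and 3.70 in the KO-labelled pair (log2 fold change -1.22, adjusted p = 0.297), and Fabp4, a fatty acid binding protein, 242 and 246 against 407 and 677 (log2 fold change 1.15, adjusted p = 0.142). No periportal gene had an unadjusted p under 0.05, and Ltbp4 had a log2 fold change of -0.51 (SE 0.26). Of 14 genes of vascular tone and flow response, edgeR called 0 and DESeq2 3, and 1 was higher and 5 lower at an unadjusted p under 0.05, with a median of -0.69 (-0.81 without EC KO 46 to -0.03 without EC WT 34). Nos3, the endothelial nitric oxide synthase, had 258 and 323 against 179.5 and 80.04 (log2 fold change -1.16, adjusted p = 0.248), and Klf2, the flow-induced transcription factor, 781 and 588 against 262 and 477 (log2 fold change -0.89, adjusted p = 0.304). The subunits of the nitric oxide receptor, Gucy1a3 and Gucy1b3, had log2 fold changes of -1.5 and -1.76. Both were more abundant in HSC WT (727 and 812, and 451 and 365 raw CPM) than in EC WT (12.8 and 17.5, and 13.9 and 13.2), and HSC markers were lower in the KO-labelled EC libraries, whose part was not tested. Procr, the endothelial protein C receptor, had a log2 fold change of 0.85. Ptgs2 had 2.41 and 5.52 against 0.201 and 0.

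Of 20 adhesion and junction molecules, 0 passed by edgeR and 2 by DESeq2. For the leukocyte adhesion receptors no difference passed, with Selp at 114 and 44.2 normalized CPM in WT and 24.4 and 21.8 in the KO-labelled pair (log2 fold change -1.78, SE 0.45, adjusted p = 0.134), Sele at 62.9 and 33.1 against 3.35 and 13.5 (log2 fold change -2.51, SE 0.67, adjusted p = 0.152) and Vcam1 at 272 and 224 against 79.0 and 165 (log2 fold change -1.03, adjusted p = 0.267). Ocln, a tight junction protein with 25.8 raw CPM in WT hepatocytes, had 6.03 and 13.8 normalized CPM in WT and 3.35 and 1.09 in the KO-labelled pair (log2 fold change -2.15, and -1.44 without EC WT 38). The junction molecule Jam3 had a log2 fold change of 1.07. The 27 endothelial transcription factors gave 0 calls by either tool, with Sox17 (0.60) and Mef2c (0.66) higher and Klf2 lower at an unadjusted p under 0.05 and a median of 0.18.

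Among 15 EMT and EndoMT genes tested, 3 passed as lower and 0 as higher by edgeR (7 and 0 by DESeq2). At an unadjusted p under 0.05, 7 were lower and 1 higher. Cdh2, the neuronal cadherin, had 7.66 and 9.74 normalized CPM in WT and 0.469 and 0.435 in the KO-labelled pair (log2 fold change -4.24, SE 0.65, adjusted p = 0.0361). Fibronectin (Fn1) had 85.5 and 211 against 12.8 and 23.9 (log2 fold change -3.01, SE 0.52, adjusted p = 0.0455), and Col3a1, a fibrillar collagen that is also among the HSC markers, 48.7 and 41.0 against 12.1 and 11.0 (log2 fold change -1.95, SE 0.27, adjusted p = 0.0300). WT hepatocytes held these 3, Cdh2, Fn1 and Col3a1, at 47.0, 355 and 5.59 raw CPM. The HSC WT libraries had 257 and 239 raw CPM of Cdh2, 643 and 563 of Fn1 and 2327 and 1588 of Col3a1. Hepatocyte and HSC markers were both lower in the KO-labelled EC libraries, and their part was not tested. The list's median was -1.43 over the 15 genes and 0.04 over the 5 members under 1 CPM in hepatocytes, where no unadjusted p by edgeR was under 0.05.

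Guidance cues and receptors had 0 calls by edgeR and 1 by DESeq2 among 20 tested (median -0.29, and -0.40 to -0.17 with 1 library left out). Sema4c and Sema3f had log2 fold changes of -0.88 (adjusted p = 0.116) and -0.71, and Efna1 of 0.56. Among 6 lymphatic genes 0 passed by either tool and 0 had an unadjusted p under 0.05, with Prox1 at a log2 fold change of -0.77 and 49.9 raw CPM in WT hepatocytes. The 9 arterial genes gave 0 calls by edgeR and 1 by DESeq2. The chemokine Cxcl12 had 137 and 191 normalized CPM in WT and 47.0 and 71.8 in the KO-labelled pair (log2 fold change -1.47, SE 0.30, adjusted p = 0.0727), with 332 raw CPM in WT hepatocytes and 7932 and 9034 in the HSC WT libraries. HSC markers were lower in the same EC libraries, as given above, and their part was not tested. Venous genes had 0 calls of 7 by edgeR and 1 by DESeq2, and Vwf, von Willebrand factor, had 10.4 and 17.6 against 6.23 and 2.54 (log2 fold change -1.67, adjusted p = 0.253).

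In the immediate early and dissociation list, which follows handling of tissue, 0 of 17 passed by either tool, and Jund alone had an unadjusted p under 0.05 (log2 fold change -0.99, adjusted p = 0.285). Interferon-stimulated genes had 0 calls of 19 by either tool. Rsad2 had 43.0 and 30.4 normalized CPM in WT and 49.7 and 130 in the KO-labelled pair (log2 fold change 1.29), and Ifih1 had a log2 fold change of 0.63. The list's median of 0.34 changed sign without EC WT 38 (-0.29) and without EC KO 46 (-0.08). For antigen presentation edgeR called 0 of 14 and DESeq2 6, all 6 lower. They were the MHC class II genes and their cofactors, with Cd74, the invariant chain, at 688 and 925 against 329 and 298 (log2 fold change -1.36, SE 0.26, adjusted p = 0.0580), H2-Ab1 at 169 and 197 against 84.9 and 60.5 (log2 fold change -1.33, adjusted p = 0.0566) and H2-Aa, H2-DMa and H2-Eb1 at -1.29, -1.23 and -3.13. Their transactivator Ciita had 6.66 and 18.1 normalized CPM in WT and 3.55 and 2.54 in the KO-labelled pair (log2 fold change -2.02, and -1.13 without EC WT 38). EC WT 34 alone held the high value of H2-Eb1, 55.0 against 5.68 in EC WT 38, and without it the log2 fold change was -0.70. B cells carry class II as well, and their markers were lower in the KO-labelled pair. Kupffer cells held far more Cd74, with 17238 and 15666 raw CPM in KC WT against 677 and 936 in EC WT. Their markers were higher in the KO-labelled pair. The part of either cell type was not tested. Of 15 cell cycle genes, 0 passed by edgeR and 1 by DESeq2, with 4 higher and 0 lower at an unadjusted p under 0.05. Cdk1 had 14.3 and 12.3 against 26.5 and 38.0 (log2 fold change 1.28, SE 0.31, adjusted p = 0.126), and Birc5, Cenpf and Mcm5 had log2 fold changes of 1.54, 1.73 and 0.78. The median of 0.78 ranged from 0.20 without EC KO 46 to 1.10 without EC WT 34.

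**Figure D5:**
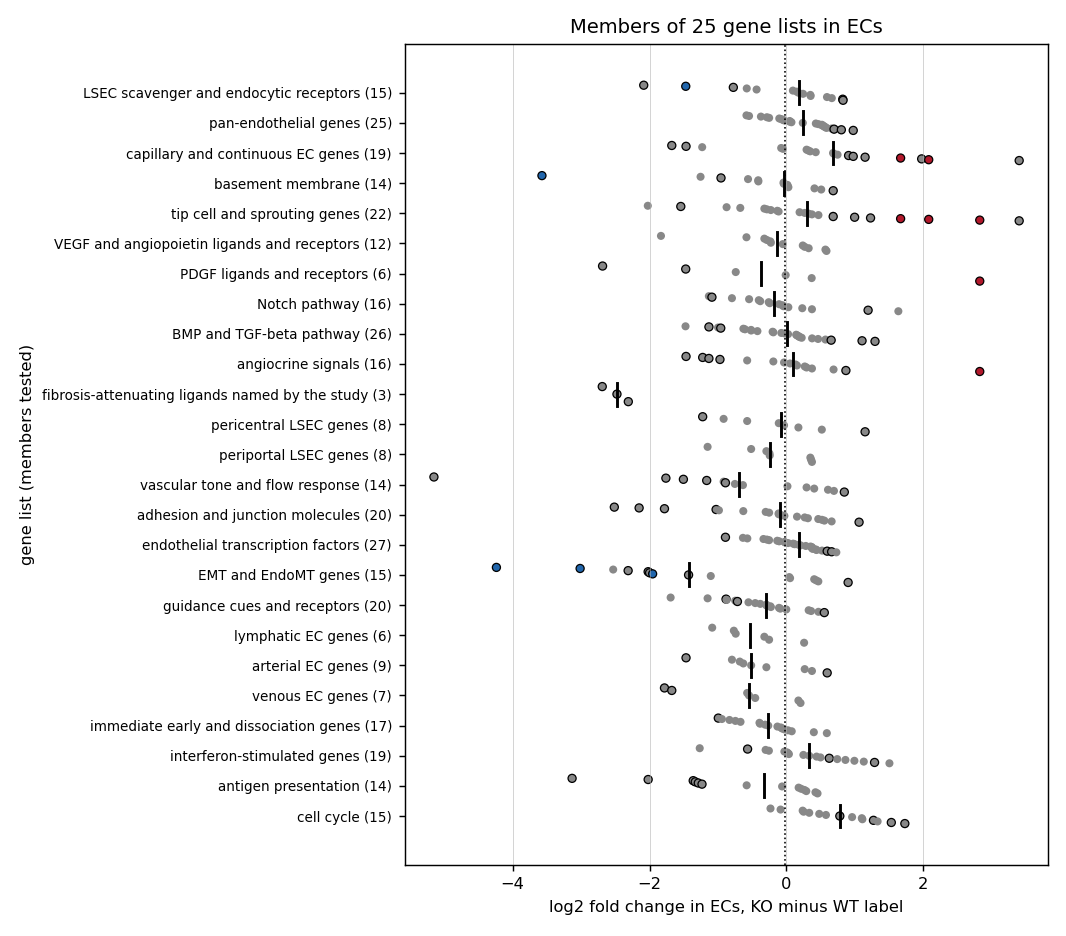
Log2 fold change in ECs, KO minus WT label, of the tested members of 25 gene lists. Red points passed the threshold as higher and blue points as lower, black outlines mark an unadjusted p under 0.05, black bars are the list medians, and the dotted line is the median of all 14631 genes (-0.01). The 3 red points of the tip cell list are Pdgfb, Rgcc and Cd34, and the 3 blue points of the EMT list are Cdh2, Fn1 and Col3a1.

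Whether a difference was particular to ECs was tested as the EC effect minus the mean effect of the other 3 cell types, over all 16 libraries. Of 17214 genes 61 passed (0.354%), 60 of them with a more negative effect in ECs. Of the 6458 genes under 1 CPM in WT hepatocytes 1 passed (0.0155%), Ptger3. This class was chosen for few hepatocyte reads, whereas the contrast includes the hepatocyte effect. Where another cell type had no reads, the difference had no usable estimate (SE 6225 for Pdgfb and 3834 for Igsf23). For such genes the test could not decide. Of the genes called in ECs in this class, Map1b came nearest (difference 3.45, adjusted p = 0.0957). The call of a gene in ECs alone does not show that its effect differed from that in the other cells. The cell types were sorted at the same time, so one mouse may have given libraries of several types, which this test treats as independent.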

How the data were processed

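RNA sequencing was analysed for 16 libraries of sorted liver cells, of which the 4 EC libraries carry the results. The authors deposited raw read counts per Ensembl gene, made with Trimmomatic 0.32, HISAT2 2.1.0 and HTSeq 0.9.1 on GRCm38 per the submitters' processing notes. The annotation release and strand setting are not given in the sources used here. The labels name a stranded TruSeq kit and the series design Smart-seq2, so that antisense partners may not be told apart. The 5 summary lines per file (47.5% to 52.7% of the reads listed in EC libraries) were dropped. Counts were tested with edgeR 4.0.16 in R 4.3.3 (filterByExpr, TMM, quasi-likelihood test, Benjamini-Hochberg). DESeq2 1.42.0 was an alternative, and the procedure was tested on simulated data. Coordinates came from GENCODE M21, which held 99.1% of the gene IDs.

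Named genes were the EC markers, Zeb2 and Zeb1, all genes under 1 CPM in WT hepatocytes past the threshold, those next by p with at least 5 normalized CPM in 1 label, the largest changes among the other called genes, and members of 25 gene lists that passed or, failing that, had an unadjusted p under 0.05. The members and lists were chosen with earlier results of these data known. Floors cover counting error only, while SEs come from the test and include the spread between libraries. Some items are not reported here.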

Additional observations from a re-analysis of the deposited data

Results flagged for a closer look

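For 61 genes the KO-minus-WT log2 fold change in ECs differed from the mean of that in HSCs, Kupffer cells and hepatocytes. This was by a test of the difference itself (edgeR, all 16 libraries). Of the 61, 4 are given here. Cdh2 and Clmn were named above, Ptger3 was the 1 gene under 1 CPM in WT hepatocytes, and 1810011O10Rik was chosen for its direction. Cdh2, the neuronal cadherin, differed by -3.58 (SE 0.59, adjusted p = 0.0413), with a log2 fold change of -4.24 in ECs against -0.75 (HSCs), -0.28 (Kupffer cells) and -0.996 (hepatocytes). Clmn, which encodes the actin-binding protein calmin, differed by -9.05 (SE 1.49, adjusted p = 0.0415) and had no count in the KO-labelled EC libraries, so that the size of the difference depends on the prior count. Ptger3, a receptor for prostaglandin E2, differed by -4.85 (SE 0.82, adjusted p = 0.0417). Its log2 fold change in ECs was -1.56 (adjusted p = 0.494), and it was 7.24 in Kupffer cells, where both WT libraries had no count, so that this value too depends on the prior count. 1810011O10Rik was the 1 gene with a more positive effect in ECs, by 1.76 (SE 0.31, adjusted p = 0.0454). It had 143.2 and 157.7 raw CPM in EC WT and 345 and 297.4 with the EC KO label (log2 fold change 1.09, adjusted p = 0.0593). In Kupffer cells it was lower under the KO label, with 84.3 and 70.7 raw CPM in WT against 24.0 and 28.6 (log2 fold change -1.62). The log2 fold change was -0.30 in HSCs and -0.14 in hepatocytes, so that the difference does not come from ECs alone. No group had the 4 samples that a search for single outlying libraries needs.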

How the results depend on the processing

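With 1 library left out, the number of genes called ranged from 3 (without EC KO 46) to 688 (without EC WT 34) over all genes and from 1 to 88 among genes under 1 CPM in WT hepatocytes. Over all genes and in that class DESeq2 called 996 and 146, an adjusted p under 0.1 gave 529 and 40, a minimum of 10 counts in every EC library 489 and 25, and no filter on low counts 1259 and 234. Library totals in place of TMM gave 190 over all genes. In the class, 27 passed with TMM factors taken from it, 9 with all 16 libraries in one fit, 5 with a limit of 0.1 CPM, and 0 when it was fitted alone (57 by DESeq2, added after the data were seen). The EC effect against the other cell types gave 576 calls with DESeq2, 357 against Kupffer cells, 12 against hepatocytes, 6 against HSCs, and 1 when only genes of the class were counted, also added later. Of 94 named genes, 4 changed sign, none of them past the threshold. The Zeb1 log2 fold change ranged from -0.14 to 0.30 with 1 library left out, Cdh5 from -0.48 to 0.036, Ehd3 from -0.057 to 0.48 and Tie1 from -0.33 to 0.31, and the Tie1 log2 fold change was 0.00675 with TMM factors from the class. Most of the 94 had not passed the threshold and had no call to lose. Of those that had passed, most lost their call without EC KO 46 or without EC KO 6, which leaves 1 library in that label. Without EC WT 38 few did. With all 16 libraries in one fit 21 lost their call, with library totals 7 and with DESeq2's size factors 1. In the class fitted alone 16 lost it. The causes were not tested. No paired analysis was possible because the labels compared share no replicate number. With 2 libraries per label a change has to be large to be called, and a gene at 3 counts or fewer in a label has no measurable level there.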
